A study of Mus musculus with 8 samples.

Results

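Potassium channel genes of the mouse retina were followed through 14 days of hyperoxia. The set was chosen by symbol, as genes with a probe set of their own whose name starts with a potassium channel prefix (Kcna to Kcnk, Kcnm, Kcnn, Kcnq, Kcns, Kcnt or Kcnv), and holds 78 genes of the 18193 measured. They are read by 153 probe sets, 42 genes by several and 36 by a single one, and each gene is given as the mean of its probe sets. All 78 matched a RefSeq gene, and 3 are noncoding transcripts that carry a channel prefix (Kcnq1ot1, Kcnmb4os1 and Kcnmb4os2).

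Retinas of C57BL/6J mice aged 80 to 120 days were taken after 3, 7 or 14 days in 75% oxygen, or from control mice kept in normal air (day 0), and their RNA was hybridised to 8 Affymetrix whole-genome mouse arrays, 2 at each of the 4 times. All animals were raised and kept in dim cyclic light. RNA of several animals of both sexes was pooled at each time, and no source states if both arrays at a time had pools of their own, so p-values measure only the spread between arrays, which may be technical. In whole retina, fewer cells of a type and less RNA per cell cannot be told apart.

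Potassium channels set the resting potential of retinal cells and shorten their responses to light. Photoreceptor inner segments carry a steady outward potassium current through voltage-gated channels that balances the light-sensitive current of the outer segment, whereas Muller glia clear the released potassium through inward rectifiers. Pore-forming subunits are grouped by how they open: with voltage (Kv, EAG and KCNQ families), with calcium or sodium, by inward rectification, or as two-pore leak channels. Silent Kv subunits and auxiliary subunits form no channel alone and alter the pore-forming ones.

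Every probe set in the deposited values has a median of 0 over the 8 arrays, so a value is a difference in log2 units from that probe set's own median and gives no level. The markers of rods, cones, bipolar, amacrine and ganglion cells therefore show differences between arrays but not how strongly each cell type is represented. The number of arrays limits the precision. The arrays of a time did not resemble each other over the channel genes: across the 78 genes, Pearson's r between the 2 arrays was 0.04 at day 0, -0.12 at day 3, -0.17 at day 7 and 0.18 at day 14, whereas the closest pairs crossed times, at 0.585 for day 0 replicate 2 with day 7 replicate 2 and 0.545 for day 3 replicate 2 with day 14 replicate 2. These r values describe arrays that share one centring, and genes are not independent replicates. Over all genes the closest pair was day 3 replicate 2 with day 14 replicate 2, at 0.691. Within day 3 the value was -0.0156 and within day 14 it was 0.182. The study, from values processed in another way, reports close clustering of replicates at days 0, 3 and 14. Arrays are named here by their deposited labels, so a day 3 or day 14 mean rests on those labels. The array labelled day 3 replicate 2 held the highest value of 21 channel genes, day 3 replicate 1 of 18 and day 7 replicate 2 of 17. The 3′ minus 5′ difference of Gapdh, a sign of RNA quality or labelling, was 1.19 on day 3 replicate 2 and 1.43 on day 14 replicate 2, with -0.33 to 0.12 on the other 6 arrays. For the poly-A control transcripts (mean difference) it was 0.93 and 1.22, with -1.41 to -0.12 on the other 6. The study's Gapdh ratios were highest in both day 14 arrays and lower in both day 3 arrays, unlike the values under these labels. On day 3 replicate 2 and day 14 replicate 2 the median of 13 gliosis genes was 1.35 and 1.23, and that of 17 microglia and macrophage genes was 1.08 and 1.09. Gfap, of the gliosis list, stood at 2.56 and 2.18 there, and at -0.04 and 0.36 on replicate 1 of those days. The study lists Gfap as unchanged at day 3 and higher at day 14. The match of the deposited labels to the study's arrays was not tested. Genes of tissue outside the retina differed more. The median of 12 lens genes was -1.77 and 1.89 at day 0, and ran from -2.09 (day 3 replicate 1) to 3.49 (day 7 replicate 2). That of 8 genes of cornea and other epithelium was 0.86 and 2.02 at day 0, and -1.19 and -1.12 at day 3. It was -0.06 and -0.76 at day 7, then 1.43 and 0.04 at day 14. The part of such tissue in the channel values was not tested.

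No potassium channel gene passed the test at any time. The lowest adjusted p (limma, Benjamini-Hochberg over all genes) was 0.427 on day 3, 1 on day 7 and 0.613 on day 14, so 0 of 78 members were called in each comparison with day 0, and 0% of all genes were. The other 3 pairs of times also called 0 members and 0% of all genes, and the F test over the 4 times called 0, its lowest adjusted p being 0.541. Beside those counts, 6 members had an unadjusted p under 0.05 and a higher mean at day 3 and 0 a lower one, where 6.38% and 4.61% of all genes did. At day 7 the counts were 0 higher and 0 lower (0.341% and 0.456% of all genes), and at day 14 they were 2 and 2 (4.45% and 3.56%). With one array removed they changed: on day 3 there were 2 in place of 6 with day 0 replicate 1 left out and 11 with day 3 replicate 2 left out, the day 7 count was 7 with day 7 replicate 1 left out, and the day 14 count of 4 was 1 with day 0 replicate 1 or day 14 replicate 2 left out, 2 with day 0 replicate 2 left out and 7 with either day 3 array left out. No member differed by 2-fold as a gene mean at any time. Of all 18193 genes, 158, 47 and 124 did at days 3, 7 and 14. At shares this small, a count of 0 among 78 does not set the members apart.

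Most channel genes, like most of all genes, stood slightly above day 0 at days 3 and 14, whereas the balance at day 7 turned on a single array. The 78 genes had median differences of 0.09 (day 3), 0.02 (day 7) and 0.06 (day 14), and over all genes it was 0.06, -0.01 and 0.08. Counted by sign, 55 members were above and 23 below the day 0 mean on day 3. On day 7 it was 45 above and 33 below, and on day 14 it was 51 above and 27 below. Of all 18193 genes, 10770 were above on day 3, 8753 on day 7 and 11652 on day 14. The counts by family given further on are to be read beside these. Without day 7 replicate 2, 32 members were above and 46 below on day 7, with a median of -0.0358. Both arrays lay above both day 0 arrays for 21 members at day 3 (26.9% of them, with 28.2% of all genes), 12 at day 7 (15.4%, with 12.1%) and 22 at day 14 (28.2%, with 33.5%). Both lay below for 9 members (11.5%, with 16.1% of all genes), 8 (10.3%, with 13.1%) and 12 (15.4%, with 15.2%). These shares lie near or below those of all genes, apart from the day 7 share above day 0. Pairs above day 0 at one time and below it at another were found for 5 members (6.41%), with 7.57% of all genes. The median share of a member's sum of squares that lay between days was 44.1%, with 49.2% for all genes, and the median SD within a time was 0.18 and 0.17. A range of 1 or more over the 8 arrays was found for 9 members (11.5%) and 16.8% of all genes.

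**Figure D1:**
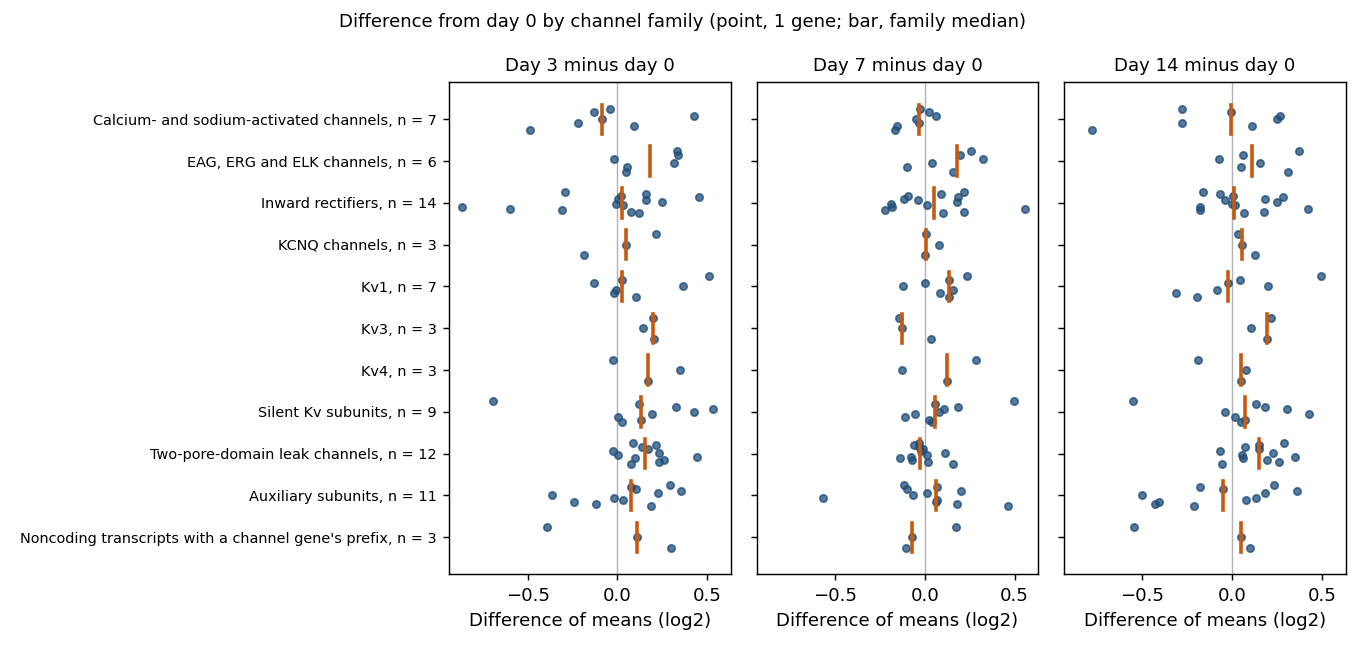
Difference of mean log2 value from day 0 for each of the 78 genes at days 3, 7 and 14, by channel family; each point is 1 gene (2 arrays a time) and each bar the family's median. At day 3, 11 of 12 two-pore genes and 8 of 9 silent Kv genes lie right of 0, where 10770 of all 18193 genes (not drawn) were higher. The lowest points are Kcnj14 at day 3 (-0.86) and Kcnma1 at day 14 (-0.78).

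Silent Kv subunits held the highest difference at day 3. These subunits join other Kv subunits and change their gating. Of the 9 measured, 8 had a higher mean at day 3 than at day 0 and 5 had both arrays above both day 0 arrays, though 0 passed the test. Among all genes, 10770 of 18193 had a higher mean at day 3 and 28.2% had both arrays above. Kcns2 was at 0.46 and 0.34 on the day 3 arrays, against -0.17 and -0.10 on the day 0 arrays, a difference of 0.53 ± 0.14 (SE; 1.45-fold; adjusted p = 0.427, limma). The day 7 arrays read -0.09 and 0.04, and the day 14 arrays 0.04 and 0.31. Both day 3 arrays thus stood above all other arrays in the gene mean of Kcns2. Its 2 probe sets were each above day 0 at day 3, by 0.31 and 0.76, but neither alone had both day 3 arrays highest. One read 0.30 and 0.04 at day 3 and 0.13 on day 7 replicate 2. The other read 0.62 and 0.63 at day 3 and 0.65 on day 14 replicate 2. Kcns1, of the same subfamily, was at 0.26 and 0.50 at day 3, against -0.08 and -0.02 at day 0 (difference 0.43 ± 0.13, SE; adjusted p = 0.427, limma). It was at 0.02 and 0.05 at day 7 and at -0.06 and -0.11 at day 14, so its 2 highest arrays were those of day 3. Kcng4 did not follow them: its arrays read 0.02 and -0.02 at day 0, -0.34 and 0.72 at day 3, -0.04 and -0.07 at day 7, then 0.26 and 0.60 at day 14. Its day 14 difference was 0.43 ± 0.31 (SE; adjusted p = 0.688, limma), and its day 3 arrays lay on either side of day 0.

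Kcnv2 was the exception among the silent subunits. It is expressed in rods and cones, and its loss in humans causes a cone dystrophy with an enlarged rod response. Its single probe set read 0.08 and 0.34 at day 0, 0.10 and -1.07 at day 3, -0.08 and 1.5 at day 7, then -0.10 and -0.58 at day 14. In each exposed pair, replicate 1 stayed between -0.10 and 0.10 and replicate 2 carried the departure, low at days 3 and 14 and high at day 7. The differences from day 0 were -0.70 ± 0.55, 0.50 ± 0.55 and -0.55 ± 0.55 (SE; adjusted p = 0.627, 1 and 0.752, limma). Without day 7 replicate 2 the day 7 difference was -0.29. The median of 12 rod genes ranged only from -0.36 to 0.10 over the arrays, and was -0.25 on day 3 replicate 2, 0.10 on day 7 replicate 2 and -0.33 on day 14 replicate 2. Its lowest value was on day 3 replicate 1, where Kcnv2 read 0.10. The median of 8 cone genes was -0.31, -0.21 and -0.24 on those second arrays of days 3, 7 and 14, so below 0 where Kcnv2 was highest. The part of rods or cones in the Kcnv2 values was not tested.

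**Figure D2:**
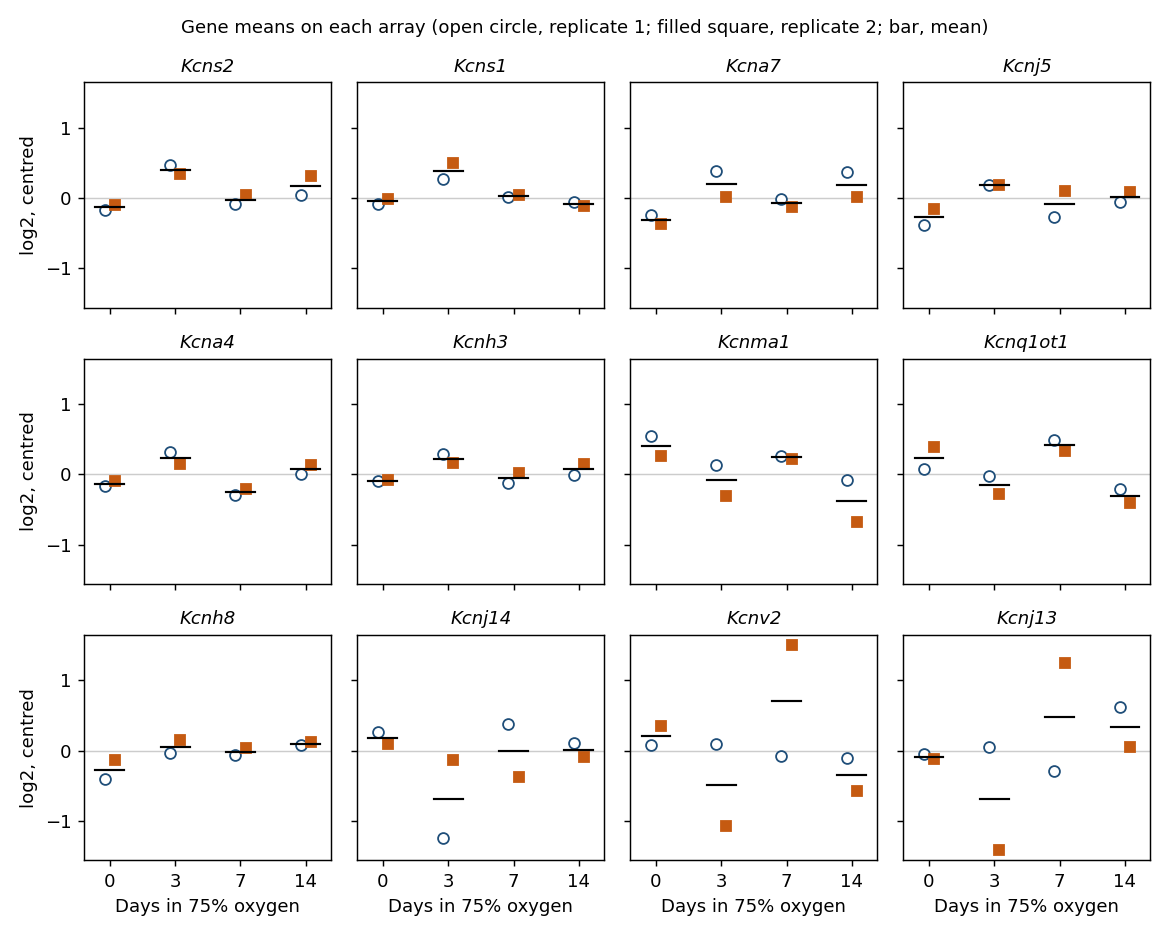
Gene means (centred log2 units) of 12 potassium channel genes on each array by day in 75% oxygen; open circles are replicate 1, filled squares replicate 2 and bars the mean of the 2 arrays. Kcns2 and Kcns1 are highest on both day 3 arrays, Kcnma1 and Kcnq1ot1 are lowest at day 14, and the means of Kcnv2 and Kcnj13 rest on single arrays at 1.5 and 1.25 (day 7 replicate 2) and -1.07 and -1.41 (day 3 replicate 2).

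Among the other voltage-gated genes, 3 of the 6 members with an unadjusted p under 0.05 at day 3 were Kv1 or Kcnh genes. Kcna7, a Kv1 subunit, was at 0.39 and 0.02 at day 3 and at 0.37 and 0.01 at day 14, against -0.24 and -0.37 at day 0. All 6 exposed arrays of Kcna7 lay above both day 0 arrays, the day 7 ones at -0.01 and -0.13. Its differences were 0.51 ± 0.18 at day 3 and 0.50 ± 0.18 at day 14 (SE; adjusted p = 0.427 and 0.615, limma). Kcna4, whose channels inactivate rapidly, was at 0.32 and 0.15 at day 3, against -0.16 and -0.10 at day 0 (0.37 ± 0.13, SE; adjusted p = 0.427, limma), and at -0.30 and -0.21 at day 7. Its 2 probe sets both had a mean above day 0 at day 3, by 0.18 and 0.56, but correlated at -0.23 over the 8 arrays. At day 7 they differed in sign, at 0.15 and -0.39. Kcna3 overlapped day 0 at every time, within -0.25 to 0.40. Counting all 7 Kv1 genes, 4 had a higher mean at day 3, with 6 higher at day 7 and 3 at day 14. The day 7 count rested on replicate 2 of that day: with it left out 1 was higher and 6 were lower, and the family's median was -0.13 in place of 0.13.

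The Kcnh genes, which encode the EAG, ERG and ELK channels, had a higher mean in 5 of 6 cases at days 3, 7 and 14, with medians of 0.18, 0.18 and 0.11. The lower ones were Kcnh5 at days 3 and 14 and Kcnh2 at day 7. Among all 18193 genes, 10770, 8753 and 11652 were higher at these times. Kcnh8, an ELK channel, was at 0.08 and 0.12 at day 14, against -0.41 and -0.14 at day 0 (0.37 ± 0.14, SE; adjusted p = 0.617, limma). All 6 exposed arrays of Kcnh8 lay above both control arrays, from -0.06 to 0.15. Kcnh3, also an ELK channel, was at 0.28 and 0.17 at day 3, against -0.10 and -0.08 at day 0 (0.31 ± 0.13, SE; adjusted p = 0.450, limma), with all 4 of its probe sets above day 0. Kcnh7, an ERG channel, was at 0.07 and 0.32 at day 3, against -0.26 and -0.03 at day 0 (0.34 ± 0.15, SE; adjusted p = 0.457, limma). Kcnh5, an EAG channel, read 0.09 and 0.52 at day 7, against 0.07 and -0.11 at day 0, which was 0.32 ± 0.18 higher (SE; adjusted p = 1, limma). Without the second arrays of days 3 and 14, 3 of 6 Kcnh genes were higher at day 3 and 4 of 6 at day 14.

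The Kv3 genes support fast repolarisation. All 3 measured were higher at day 3 (0.14 to 0.20) and at day 14 (0.10 to 0.22), and 2 were lower at day 7, with all 3 lower without day 7 replicate 2 and 0 without day 7 replicate 1. Kcnc1 read -0.07 and -0.10 at day 0, -0.08 and 0.33 at day 3, -0.17 and 0.08 at day 7, then 0.00 and 0.23 at day 14, so its higher means came mainly from replicate 2. Kcnc2 spread from -0.34 to 0.30, and its day 3 and day 14 arrays overlapped those of day 0. Among the Kv4 genes of the A-type current, Kcnd3 was within -0.09 to 0.18 on 7 arrays and at 0.76 on day 7 replicate 2, which gave its day 7 difference of 0.28 ± 0.23 (SE; adjusted p = 1, limma). Without that array the difference was -0.08. All 3 KCNQ genes measured, which carry slow voltage-gated currents, differed from day 0 by between -0.19 and 0.21 at every time.

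Kcnma1 was the lowest member at day 14. It encodes the pore of the large-conductance calcium-activated channel, which amacrine cells and other retinal neurons use to limit transmitter release. Its gene mean was 0.55 and 0.26 at day 0, 0.14 and -0.31 at day 3, 0.25 and 0.22 at day 7, then -0.08 and -0.67 at day 14. All 6 exposed arrays were below both day 0 arrays, and the day 14 pair held the lowest value. The difference from day 0 was -0.49 ± 0.24 at day 3, -0.16 ± 0.24 at day 7 and -0.78 ± 0.24 at day 14 (SE; 0.583-fold at day 14; adjusted p = 0.481, 1 and 0.613, limma). Day 14 was also 0.62 below day 7 on this scale (difference -0.62 ± 0.24, SE; adjusted p = 0.419, limma).

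The 5 probe sets of Kcnma1 were all below day 0 at day 14, by amounts that ranged from -1.47 to -0.13. The most negative probe set was at -0.03 and -2.31 on the day 14 arrays, against -0.04 and 0.65 at day 0, with -1.48 on day 3 replicate 2 and 1.07 on day 7 replicate 2. These 2 low arrays are the ones with the high Gapdh 3′ minus 5′ difference. The high array, day 7 replicate 2, had the lowest Gapdh and beta-actin differences, at -0.325 and -0.943. For the poly-A controls the lowest array was day 3 replicate 1, at -1.41, with -0.885 on day 7 replicate 2. The part of RNA quality or labelling in the result was not tested. The next lowest probe set separated the times more evenly, at -0.31 and -0.26 at day 14 and 0.02 and -0.02 at day 3, against 0.98 and 0.64 at day 0 (-1.10 ± 0.37 at day 14, SE; adjusted p = 0.524, limma over all probe sets). It read 1.08 and -0.14 at day 7. Without day 3 replicate 2 and day 14 replicate 2 the gene mean was still lower at both times, with differences of -0.27 at day 3 and -0.48 at day 14.

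The start of Kcnma1 is shown because it is the member with the largest difference at day 14, beside that of Kcnj13, described further on, whose arrays spread most among all members. The RefSeq promoter table (GRCm38.p6, 250 bases before to 50 after the start) matched 59 of the 78 genes. Kcnma1 lies on the minus strand at chr14:24004156-24004455 and Kcnj13 on the minus strand at chr1:87394680-87394979, both written 5′ to 3′ in lower case, with capitals for a match on either strand to ACGTG or to its variant GCGTG, cores of hypoxia response elements, or to the photoreceptor motif TAATCC, bound by CRX and OTX factors.
Kcnma1: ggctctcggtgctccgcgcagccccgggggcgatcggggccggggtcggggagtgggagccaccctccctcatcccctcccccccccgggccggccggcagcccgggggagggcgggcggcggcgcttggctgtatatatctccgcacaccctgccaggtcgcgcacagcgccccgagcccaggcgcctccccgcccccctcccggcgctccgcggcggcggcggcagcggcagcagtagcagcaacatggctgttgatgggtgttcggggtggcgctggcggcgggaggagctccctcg
Kcnj13: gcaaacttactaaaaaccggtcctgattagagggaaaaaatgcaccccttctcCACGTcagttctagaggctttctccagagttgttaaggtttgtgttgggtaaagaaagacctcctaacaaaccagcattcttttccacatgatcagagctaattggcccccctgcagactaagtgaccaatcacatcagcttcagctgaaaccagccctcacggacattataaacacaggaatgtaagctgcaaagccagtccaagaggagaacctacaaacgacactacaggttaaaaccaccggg
The Kcnma1 window was 78% G and C with 36 CpG pairs and held none of the 3 motifs. The Kcnj13 window was 46% G and C with 5 CpG pairs and held 1 match to ACGTG, on the opposite strand. Of the 79 promoters of member genes, 19% held ACGTG, 34.2% GCGTG and 2.53% TAATCC, with 19.6%, 32.4% and 7.06% of all 32851 promoters of the same length. A match describes these letters only and is not a measured site.

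The remaining calcium-activated and the sodium-activated genes had smaller differences than Kcnma1 at day 14. Of the 7 genes in this group, 5 were lower at day 3, 5 at day 7 and 4 at day 14, with medians of -0.09, -0.03 and -0.01. Kcnn4, the intermediate-conductance channel found in microglia and blood cells, was at 0.53 and 0.06 at day 3, against -0.05 and -0.22 at day 0 (0.43 ± 0.19, SE; adjusted p = 0.467, limma). Its highest array was day 3 replicate 1, where the microglia and macrophage list had a median of 0.17, and its next highest was day 14 replicate 2, at 0.28, where that median was 1.09. It stood at 0.06 on day 3 replicate 2, where the median was 1.08. The part of these cells in the Kcnn4 values was not tested. Kcnn1, a small-conductance channel, was at -0.09 and -0.22 at day 7, against 0.06 and -0.07 at day 0 (-0.15 ± 0.14, SE; adjusted p = 1, limma).

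**Figure D3:**
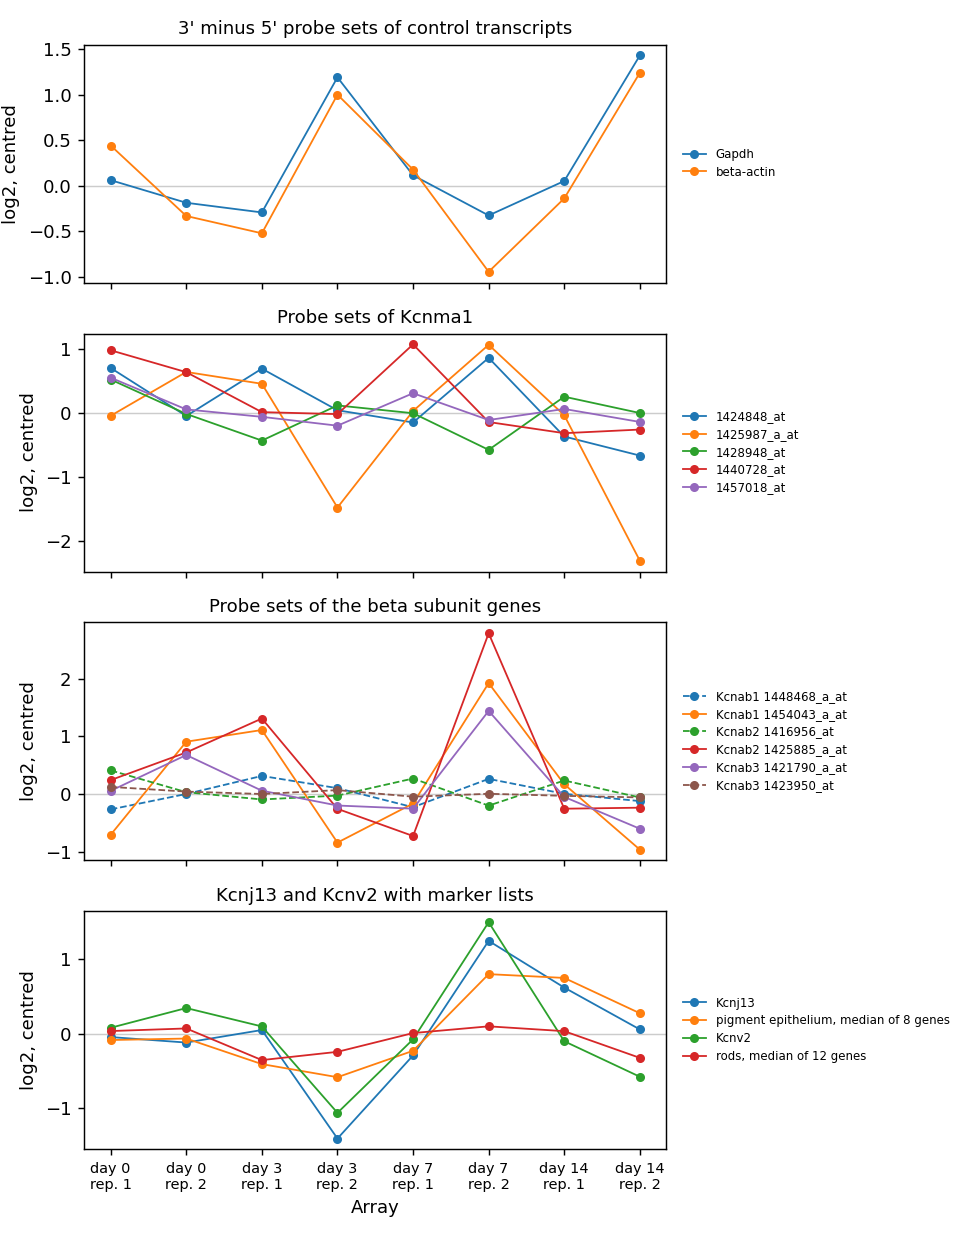
Centred log2 values on the 8 arrays (points; lines only join the points of one series) for the 3′ minus 5′ differences of Gapdh and beta-actin, the 5 probe sets of Kcnma1, the probe sets of Kcnab1, Kcnab2 and Kcnab3, and Kcnj13 and Kcnv2 beside the medians of 8 pigment epithelium and 12 rod genes. One probe set of each Kcnab gene peaks on day 7 replicate 2 (1.92, 2.78 and 1.44) while the other stays within -0.27 to 0.41, and 1 Kcnma1 probe set is lowest on the 2 arrays with the highest Gapdh difference.

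Inward rectifiers held the lowest difference of any member, in Kcnj14 at day 3. This gene encodes a strong rectifier of neurons, and it read 0.26 and 0.09 at day 0, -1.24 and -0.13 at day 3, 0.37 and -0.38 at day 7, then 0.10 and -0.09 at day 14. Both day 3 arrays were below both day 0 arrays, but one was more than 1 unit lower than the other (difference -0.86 ± 0.38, SE; adjusted p = 0.459, limma). Without day 3 replicate 1 the difference was -0.31, and Kcnj13, at -1.33, was then lower, and without day 3 replicate 2 it was -1.42. Kcnj5, a G protein-gated rectifier, was at 0.19 and 0.18 at day 3, against -0.39 and -0.15 at day 0 (0.45 ± 0.17, SE; adjusted p = 0.428, limma), and its 2 probe sets were above day 0 by 0.44 and 0.46. Kcnj2, the classical strong rectifier, had all 6 exposed arrays between -0.13 and 0.12, above the day 0 values of -0.21 and -0.19. Its difference was 0.25 ± 0.13 at both day 3 and day 14 (SE; adjusted p = 0.5 and 0.630, limma).

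Kcnj13 spread the most of all members. It encodes the rectifier of the apical membrane of the pigment epithelium, a layer that adjoins the retina and can come away with it in dissection. It read -0.05 and -0.12 at day 0, 0.05 and -1.41 at day 3, -0.29 and 1.25 at day 7, then 0.62 and 0.06 at day 14, so only the day 14 pair lay on one side of day 0. The differences were -0.60 ± 0.59, 0.56 ± 0.59 and 0.42 ± 0.59 (SE; adjusted p = 0.690, 1 and 0.821, limma). On the same arrays the median of 8 pigment epithelium genes was -0.09 and -0.07 at day 0, -0.41 and -0.59 at day 3, -0.23 and 0.80 at day 7, then 0.75 and 0.27 at day 14. Kcnj13 and this median were both lowest on day 3 replicate 2 and highest on day 7 replicate 2, but the 8 genes did not run together. On day 3 replicate 2 they spanned -2.60 to 0.17, with Best1, a chloride channel of that layer, the highest. On day 7 replicate 2 Rpe65, the retinoid isomerase, stood at 1.94, while the pigment granule genes Mlana, Tyrp1 and Dct stood at -1.11, -0.54 and -0.39. The part of the pigment epithelium in the Kcnj13 values was not tested. Without day 3 replicate 2 the day 3 difference was 0.13, and without day 7 replicate 2 the day 7 difference was -0.21.

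Of the other inward rectifiers, Kcnj12 had the lowest difference at day 3. Kcnj8, the pore of the ATP-sensitive channel of pericytes, overlapped day 0 at all times, between -0.13 and 0.47. Kcnj12 was low on replicate 1 of each exposed pair (-0.60, -0.44 and -0.29) and between -0.01 and 0.04 on replicate 2 and on both day 0 arrays, so its differences of -0.31 ± 0.25 at day 3 and -0.22 ± 0.25 at day 7 (SE; adjusted p = 0.631 and 1, limma) came from single arrays. Kcnj9, a G protein-gated rectifier, was at -0.23 and -0.16 at day 3, against -0.15 and 0.35 at day 0 (-0.29 ± 0.29, SE; adjusted p = 0.686, limma), and reached 0.75 on day 7 replicate 2. Kcnj16 was at -0.13 and -0.10 at day 7, against 0.19 and -0.03 at day 0 (-0.19 ± 0.16, SE; adjusted p = 1, limma). Over the 14 genes of the family 9, 8 and 8 were higher at days 3, 7 and 14, with medians of 0.02, 0.05 and 0.01. Leaving out day 3 replicate 2 gave 6 higher at day 3 (median -0.01), and leaving out day 7 replicate 2 gave 6 at day 7 (median -0.06).

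Two-pore leak channels, which carry background potassium current, mostly had higher means at days 3 and 14. At day 3, 11 of 12 were higher than at day 0 (median 0.15), with 5 having both arrays above both day 0 arrays, and at day 14 it was 10 of 12 (median 0.15) and 4. At day 7 only 4 of 12 were higher (median -0.03). Without the second arrays of days 3 and 14, 10 of 12 were higher at both times, with medians of 0.10 and 0.12. Over all genes 10770 of 18193 were higher at day 3 and 11652 at day 14. Kcnk15 was at -0.03 and 0.81 at day 3 and at 0.29 and 0.31 at day 14, against 0.03 and -0.14 at day 0 (0.44 ± 0.25 and 0.35 ± 0.25, SE; adjusted p = 0.522 and 0.685, limma). Its day 3 mean thus rested on replicate 2, while the day 14 arrays stood together. Kcnk2, a channel opened by stretch and fatty acids, was at -0.02 and 0.20 at day 3 and at 0.02 and 0.16 at day 14, against -0.18 and -0.10 at day 0 (0.23 ± 0.14 at both times, SE; adjusted p = 0.537 and 0.660, limma).

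Auxiliary subunits had no common direction, 7, 7 and 5 of 11 being higher at days 3, 7 and 14. The Kcnab genes encode cytoplasmic beta subunits of Kv1 channels, and each is read by 2 probe sets, which correlated over the arrays at 0.71 for Kcnab1, 0.23 for Kcnab3 and -0.62 for Kcnab2. For Kcnab2 one probe set stood at 2.78 on day 7 replicate 2 and at -0.73 on day 7 replicate 1, while the other stood at -0.20 and 0.27. At day 14 both were below day 0, by -0.73 and -0.13, and the gene mean was -0.01 and -0.15, against 0.32 and 0.37 at day 0 (-0.43 ± 0.46, SE; adjusted p = 0.771, limma). Kcnab3 was at -0.04 and -0.33 at day 14, against 0.09 and 0.36 at day 0 (-0.41 ± 0.28, SE; adjusted p = 0.669, limma), and Kcnab1 spread from -0.55 to 1.09 with every exposed pair overlapping day 0. The day 7 difference of Kcnab1 was 0.46 ± 0.55 (SE; adjusted p = 1, limma), and without day 7 replicate 2 it was -0.18.

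Among the single-span Kcne subunits, Kcne2 and Kcne4 lay on opposite sides of day 0. Kcne4 was at 0.13 and 0.16 at day 14, against -0.36 and -0.07 at day 0 (0.36 ± 0.20, SE; adjusted p = 0.638, limma), and at -0.11 and 0.40 at day 3 (0.36 ± 0.20, SE; adjusted p = 0.512, limma). Kcne2 was at -0.08 and -0.50 at day 14, against 0.34 and 0.08 at day 0 (-0.50 ± 0.28, SE; adjusted p = 0.643, limma). Its day 3 arrays read 0.11 and -0.42, a difference of -0.36 ± 0.28 (SE; adjusted p = 0.620, limma), so its 2 lowest arrays were again day 3 replicate 2 and day 14 replicate 2. Kcne1l was at -0.02 and -1.17 at day 7, against 0.22 and -0.27 at day 0 (-0.57 ± 0.35, SE; adjusted p = 1, limma), and without day 7 replicate 2 the difference was 0.01. Its day 7 value therefore rested on a single array.

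Kcnq1ot1 is no channel subunit but a long noncoding RNA of the imprinted Kcnq1 domain, transcribed antisense to Kcnq1. Its gene mean was 0.08 and 0.39 at day 0, -0.03 and -0.28 at day 3, 0.49 and 0.33 at day 7, then -0.21 and -0.41 at day 14. The arrays of days 3 and 14 were all below both day 0 arrays and both day 7 arrays. The differences from day 0 were -0.39 ± 0.17 at day 3 and -0.55 ± 0.17 at day 14 (SE; adjusted p = 0.455 and 0.613, limma), and day 14 differed from day 7 by -0.72 ± 0.17 (SE; adjusted p = 0.410, limma). Its 6 probe sets disagreed, from -1.15 to 0.40 at day 3 and from -1.24 to 0.11 at day 14. The probe set lowest at both times read -0.43 and -0.66 at day 14, against 0.24 and 1.15 at day 0, whereas another read 0.00 and -0.03, against -0.15 and -0.10. Kcnq1 itself stood at 0.14 and 0.12 at day 14 and -0.17 and -0.21 at day 3, against -0.03 and 0.03 at day 0.

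Probe sets of one gene often differed. Over the 42 genes with several, the median correlation between probe sets of a gene had a median of 0.16 and was below 0 for 15 genes, and probe sets lay on both sides of day 0 for 17 genes at day 3, 25 at day 7 and 24 at day 14. With a spread over probe sets above an SD of 0.5 and both signs, Kcnq1ot1 disagreed at days 3 and 14 and Kcnab2 at day 7.

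Proteins that bind potassium channels were read beside them. Of 22 listed partners (Kv channel interacting proteins, dipeptidyl peptidase-like subunits, sulphonylurea receptors, scaffolds and others) 20 were measured, 0 passed the test at days 3, 7 or 14, and their median differences were 0.04, 0.08 and -0.06. Dlg1, a scaffold that clusters Kv1 channels, was at -0.10 and -0.68 at day 3 and -0.04 and -0.55 at day 14, against 0.05 and 0.27 at day 0, with -0.55 ± 0.24 at day 3 (SE; adjusted p = 0.458, limma). Of 17 genes for other potassium handling (pumps, cotransporters, exchangers and HCN channels) 11 were measured and 0 passed, with medians of -0.15, 0.11 and -0.07. Slc24a1, the sodium, calcium and potassium exchanger of rods, was at -0.68 and -0.30 at day 3 and -0.07 and -0.58 at day 14, against 0.07 and 0.29 at day 0. Its differences were -0.67 ± 0.21 and -0.50 ± 0.21 (SE; adjusted p = 0.427 and 0.621, limma), and all 4 of these exposed arrays were below both day 0 arrays.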

How the data were processed

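RNA of C57BL/6J retinas was measured on 8 Affymetrix arrays, 2 at each of 4 times. The deposited values are log2 units from RMA, as the authors ran it per the labels (version not stated), and are centred on each probe set's median over the 8 arrays (to within 1e-06), a step the sources used here do not describe. The methods also describe present calls, which were not used here. Samples were grouped by the time in their titles. Of 45101 probe sets, 64 were controls, and 34945 with a single gene symbol were averaged to 18193 genes. The members and lists were chosen with earlier results of these data known, and 1 gene with a channel prefix is not reported here.

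All genes entered 1 limma 3.58.1 model with a mean for each time (lmFit, eBayes; R 4.3.3; 4 residual and 3.12 prior degrees of freedom), with a Benjamini-Hochberg adjusted p under 0.05 as the threshold. The 6 differences between times and an F test were computed. The values hold no level, so no filter on low signal was set, and the number of arrays limits the precision. Members are named if they passed the test, if they were among the 6 highest or 6 lowest differences at a time, if their probe sets disagreed (an SD above 0.5 with both signs), or for a known part in the retina (Kcnv2, Kcnma1, Kcnc1, Kcnc2, Kcnj2, Kcnj14, Kcnj8, Kcnn4, Kcna3, Kcnk2, Kcnh7 and Kcne4). Kcna4, Kcnh3, Kcnj9 and Kcnq1 in the text, and Dlg1, Slc24a1, Gfap, Rpe65, Best1, Mlana, Tyrp1 and Dct, were named after their values were seen. The pipeline was tested on simulated data. The alternatives were each probe set tested, the probe set of largest SD, leaving out x_at and s_at probe sets, a further quantile normalization, subtraction of array medians, a replicate block, robust eBayes, fits on just the 2 times compared, leaving out arrays, and the methods' one-way analysis of variance. Promoters came from a RefSeq table (GRCm38.p6) and were searched, and the plots drawn, in Python 3.11.15 (matplotlib 3.10.9).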

Additional observations from a re-analysis of the deposited data

Results flagged for a closer look

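For 5 members, both arrays of one time lay above both day 0 arrays and both arrays of another time lay below them, which was 6.41% of the 78 genes, with 7.57% of all genes meeting the same condition. These opposite directions were found by looking over all 78 genes, and no test called any of the differences between the 2 times.

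Kcna4, of the rapidly inactivating Kv1 channels, was at -0.30 and -0.21 at day 7, against 0.32 and 0.15 at day 3, with -0.16 and -0.10 at day 0 (day 7 minus day 3, -0.49 ± 0.13, SE; adjusted p = 0.285, limma). Kcnmb4, the neuronal beta subunit of the large-conductance channel, was at -0.11 and -0.14 at day 7, against 0.18 and 0.38 at day 3, with 0.05 and -0.07 at day 0 (-0.41 ± 0.19, SE; adjusted p = 0.385, limma). Kcnq1 was at 0.14 and 0.12 at day 14, against -0.17 and -0.21 at day 3, with -0.03 and 0.03 at day 0 (day 14 minus day 3, 0.32 ± 0.11, SE; adjusted p = 0.983, limma). The rule that picked these genes requires the arrays of such times to lie apart, so that separation is no further support.

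Kcng4, a silent Kv subunit, was at 0.26 and 0.60 at day 14, against -0.04 and -0.07 at day 7, with 0.02 and -0.02 at day 0 (day 14 minus day 7, 0.48 ± 0.31, SE; adjusted p = 0.547, limma). Kcnn1 was at 0.11 and 0.11 at day 14, against -0.09 and -0.22 at day 7, with 0.06 and -0.07 at day 0 (0.27 ± 0.14, SE; adjusted p = 0.475, limma). The day 7 values of Kcng4 lay close to the lower day 0 array, whereas day 7 replicate 2 was the lowest array of Kcnn1.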

How the results depend on the processing

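Under the 18 alternatives, 0 members were called in any comparison between times or F test that was computed. Robust eBayes and the compared groups alone gave no F test, and the one-way analysis of variance covered only the comparisons with day 0. An unadjusted p under 0.05 was found for 6 (day 3), 0 (day 7) and 4 (day 14) members, and when each array was left out in turn these counts ranged from 2 to 11, 0 to 7 and 1 to 7. Leaving out day 0 replicate 1 gave 2 members on day 3 and 1 on day 14, and leaving out day 0 replicate 2 gave 2 on day 14. Leaving out day 3 replicate 2 gave 11 on day 3, leaving out either day 3 array gave 7 on day 14, leaving out day 7 replicate 1 gave 7 on day 7, and leaving out day 14 replicate 2 gave 1 on day 14. With the second arrays of days 3 and 14 both left out there were 10 on day 3 and 2 on day 14. It was 2 at day 14 with the probe set of largest SD, 9 at day 14 with the compared groups alone, and 3 at day 3 with the methods' one-way analysis of variance, which gave 0 after Benjamini-Hochberg adjustment. The members' median difference at day 7 ranged from -0.0358 (without day 7 replicate 2) to 0.0621 (without day 7 replicate 1). Of 49 named differences, 40 kept their direction in every setting that scored them. The probe set tests and the analysis of variance did not score them. Robust eBayes, the replicate block, the compared groups alone and leaving out an array of another time cannot change a difference. Kcnma1 at day 7 was 0.25 with the probe set of largest SD, and Kcnj13 at day 3 was 0.13 without day 3 replicate 2, alone or together with day 14 replicate 2. With arrays left out in turn, day 7 differences ranged from -0.18 to 1.11 for Kcnab1, -0.47 to 0.021 for Kcnj12, -0.21 to 1.33 for Kcnj13, -0.29 to 1.29 for Kcnv2, -0.079 to 0.65 for Kcnd3, -1.15 to 0.0059 for Kcne1l and -0.56 to 0.19 for Kcnj14, and Kcnj13 at day 3 from -1.33 to 0.13; the cause was not tested. Where 1 array of a time remains it is assumed to vary like the others.

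The study sorts its arrays into 2 experiments with 1 array a time, and no source used here ties these to the replicate numbers or to a shared run. The correlation of replicate differences between times ranged from -0.30 to 0.46 over all genes, being 0.35 for days 0 and 7 and 0.46 for days 3 and 14 and below 0 for the other 4 pairs, so the arrays were not treated as paired. With the replicate block, 0 members were called in every comparison, with 9, 0 and 5 at an unadjusted p under 0.05 at days 3, 7 and 14. A filter on low signal and the trend option of eBayes were not run, since the values hold no level.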
